A study of Mus musculus with 8 samples.

Results

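Chemokines are small secreted proteins that attract leukocytes by binding G protein-coupled receptors, and myeloid cells both make them and respond to them. CCL6, CCL9 and CCL3 bind CCR1, CCL4 is a close relative of CCL3, and CCL2, the main attractant of monocytes, binds CCR2. CXCL1 and CXCL2 recruit neutrophils through CXCR2, CXCL16 is made as a membrane protein that binds CXCR6, and CCRL2 is an atypical receptor that presents chemerin instead of signalling. The 10 genes described here are 8 ligands (Ccl2, Ccl3, Ccl4, Ccl6, Ccl9, Cxcl1, Cxcl2 and Cxcl16) and 2 receptors (Ccr1 and Ccrl2). They were taken as a list by symbol, chosen with earlier results of these data known, and all 10 were found among the 41214 genes counted.

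Gfi1 is a zinc finger repressor of transcription in blood cells, and the study asked how mice with little GFI1 differ from mice with none. RNA from total bone marrow of 8 C57Bl6 mice was sequenced, 2 mice in each of 4 groups. KO mice lack Gfi1. KD mice carry a human GFI1 cDNA in the Gfi1 locus together with a floxed neomycin cassette in antisense orientation that lowers its expression. Ages were 39 and 42 days in the young KD group, and 48 and 44 days in young KO. Old KO animals were aged 158 and 101 days, and sick KD animals 187 and 78 days. Sick KD mice are labelled as having AML, where the study describes a myeloproliferative neoplasm, and all other mice are labelled as having no AML. No wild-type marrow was analysed here, so each comparison sets one Gfi1 mutant group against another. Sick KD differs from young KD in age as well as in disease. Old KO differs from sick KD in disease as well as in genotype, so these cannot be told apart in that comparison.

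The libraries held 26642067 to 42679114 counts on genes. Of the uniquely aligned reads, 42.0% and 38.8% fell outside annotated genes in sick KD, against 26.9% to 33.8% in the other 6 libraries. Counts on mouse Gfi1, given as CPM (counts scaled to a common library size after TMM normalization), were 13.2 to 29.9 in KO and 5.43 to 7.08 in KD libraries. Mouse Gfi1 was thus higher in the libraries labelled KO, by a log2 fold change of 1.77 in old KO against sick KD (SE 0.38, edgeR adjusted p = 0.0234), and does not check the labels. Where in the gene these reads lie was not examined, and every direction given here rests on the labels. The sick KD libraries also differed in cell type markers. Summed monocyte markers were 12741 to 13809 CPM in sick KD and 8257 to 10976 CPM in the other 6 libraries, and summed neutrophil markers were 824 to 1376 against 486 to 570 CPM. The neutrophil markers did not move together. In sick KD against young KD, Lcn2 (log2 fold change 2.09) and Mmp8 (0.95) were called higher and Retnlg (-1.06) lower among the 8, with a median of 0.07. Of the 10 monocyte markers, 4 were called higher and 1 lower, with a median of 0.35. Summed erythroid markers were 738 to 1127 CPM in sick KD and 1685 to 5361 CPM elsewhere, and summed B cell markers were 35.3 to 84.2 CPM in sick KD, 112 to 164 CPM in old KO and 490 to 700 CPM in the young groups. No list of cell type markers had a gene at 0 in all libraries.

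Of the 10 genes, 6 lie on chromosome 11 of GRCm38 and 2 each on chromosomes 5 and 9. Ccl9 (ENSMUSG00000019122, chr11:83572919-83578636), Ccl6 (ENSMUSG00000018927, chr11:83587882-83593087), Ccl3 (ENSMUSG00000000982, chr11:83647844-83649355) and Ccl4 (ENSMUSG00000018930, chr11:83662584-83664683) lie together within 91.8 kb, with Ccl2 (ENSMUSG00000035385, chr11:82035571-82037453) and Cxcl16 (ENSMUSG00000018920, chr11:70453983-70459984) farther off. Cxcl1 (ENSMUSG00000029380, chr5:90891241-90893115) and Cxcl2 (ENSMUSG00000058427, chr5:90903871-90905938) are neighbours, 16.8 Mb from Gfi1. Ccr1 (ENSMUSG00000025804, chr9:123962124-123968692) and Ccrl2 (ENSMUSG00000043953, chr9:111054486-111057519) are on chromosome 9. All 10 are annotated as protein coding.

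RefSeq promoter windows on GRCm38.p6 were at hand for 7 of the 10 genes, in 9 windows, and the 250 bases before each start site were searched on both strands. Ccl2, Ccl4 and Cxcl16 had no entry. The consensus of NF-kB, the factor that drives many inflammatory genes, was found in 1 window each of Ccr1, Ccl9, Cxcl1 and Cxcl2 and in 1 of the 3 windows of Ccrl2, where 7.25% of all 32851 windows of this length hold it. The match stretches are shown for each of these genes. Of them, Ccr1 and Ccl9 were called higher in sick KD than in young KD, Ccrl2 was not called, and the neutrophil attractants Cxcl1 and Cxcl2 had too few counts to be tested. A link between the matches and the calls was not tested. Each stretch reads 5′ to 3′ on the strand of the gene, and the capitals mark the match.
Ccr1 (chr9:123968732-123968791, minus strand): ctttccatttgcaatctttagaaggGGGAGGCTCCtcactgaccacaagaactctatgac
Ccl9 (chr11:83578637-83578696, minus strand, match on the opposite strand): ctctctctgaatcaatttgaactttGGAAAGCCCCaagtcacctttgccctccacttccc
Cxcl1 (chr5:90891149-90891208, plus strand): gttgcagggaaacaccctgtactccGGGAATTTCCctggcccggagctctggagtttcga
Cxcl2 (chr5:90903777-90903836, plus strand): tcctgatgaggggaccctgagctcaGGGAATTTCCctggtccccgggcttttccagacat
Ccrl2 (chr9:111057540-111057599, minus strand): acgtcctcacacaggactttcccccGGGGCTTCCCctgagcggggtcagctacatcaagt
Cxcl1 and Cxcl2 hold the same 10 letters, with a second match on the other strand shifted by 1 base, and the Ccrl2 match reads as a match on both strands. The GFI1 core AAATCAC was found in no window of these genes and in 2.75% of all windows. The motif of the myeloid factor PU.1, GAGGAA, was found in Ccr1 and Ccl3 and in 23.3% of all windows, and the AP-1 motif TGANTCA in Ccl9 and in 6.75% of all windows. The matches of different motifs did not overlap. In Ccr1 the PU.1 match lies farther from the start site than the NF-kB match.
Ccr1, PU.1 motif (chr9:123968791-123968846, minus strand): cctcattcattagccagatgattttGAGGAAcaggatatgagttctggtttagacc
Ccl9, AP-1 motif (chr11:83578658-83578714, minus strand): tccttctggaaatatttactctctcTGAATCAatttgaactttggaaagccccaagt
These are matches of letters, and no binding was measured.

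Per kilobase of exon, the CCR1 axis dominated the 10 genes. Mean CPM per kb over the 8 libraries was 237 for Ccl6, 174 for Ccl9 and 65.7 for Ccr1, followed by 7.68 for Ccl3, 2.80 for Ccrl2, 2.01 for Ccl4, 1.70 for Ccl2 and 0.678 for Cxcl16. Cxcl2 and Cxcl1 were near the floor at 0.0513 and 0.00875 CPM per kb. In CPM, Ccl6, Ccl9 and Ccr1 together made up 97.3% to 99.1% of the sum of the 10 genes in each library. That sum was 1424 and 1569 CPM in the sick KD libraries and 966 to 1256 CPM in the other 6.

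**Figure D1:**
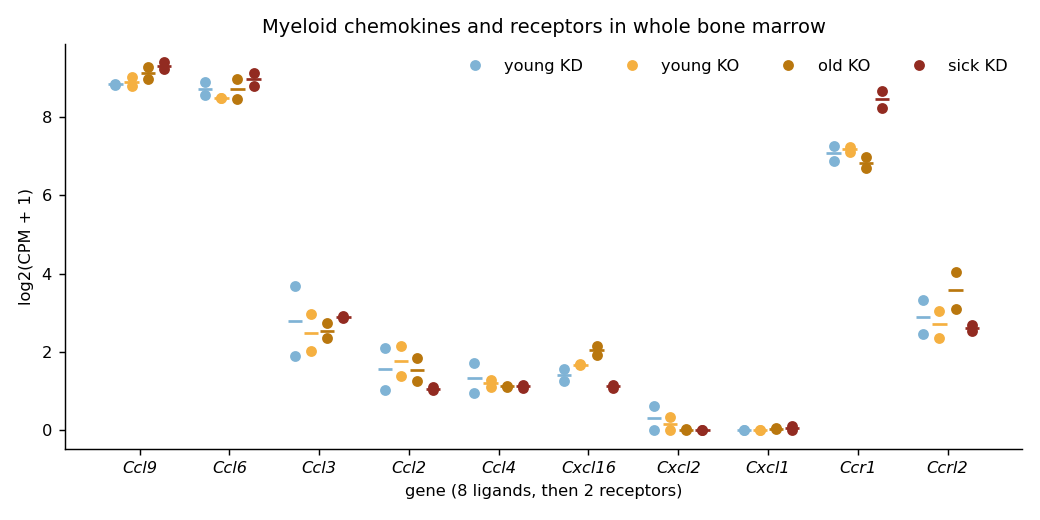
Level of each of the 10 genes as log2(CPM + 1), 1 dot per mouse, with the short line at the mean of the 2 mice of a group. Ccl9, Ccl6 and Ccr1 sit far above the rest, and Ccr1 is the gene whose sick KD mice, at 406 and 300.1 CPM, stand well clear of the other 6.

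Of the 8 genes that passed the filter on low counts, none was called different between young KO and young KD marrow. All 8 had an adjusted p of 1.0 and none had an unadjusted p under 0.05, and DESeq2 also called 0. Over all genes, 0.0404% were called (adjusted p under 0.05) in this comparison, 6 of 14839. The median log2 fold change was -0.10 for the 8 genes and -0.01 for all genes. Over the genes tested in each fit, the former was 0.41 without the 39-day and -0.41 without the 42-day young KD mouse, so its sign rests on 1 mouse. It was -0.25 both with DESeq2 and with no filter on low counts. Both of these settings also take in Cxcl2, so they do not give a median of the same 8 genes. With a mouse left out the filter can also admit Cxcl2. The precision differed between the genes. Ccl9 differed by 0.05 (SE 0.09) and Ccr1 by 0.08 (SE 0.14) on the log2 scale, whereas Ccl3 differed by -0.59 with an SE of 0.69, larger than the difference itself. Without the 39-day young KD mouse the Ccl3 value turned to 0.83 and the Ccr1 value to -0.10, and without the 48-day young KO mouse the Ccl9 value turned to -0.06, none of them called.

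Ccr1, the receptor of CCL3, CCL6 and CCL9 on monocytes and neutrophils, was highest in the sick KD mice. It was at 406 CPM in the 187-day and 300.1 CPM in the 78-day sick KD mouse. The old KO mice had 103 and 124 CPM, the young KO mice 137 and 149 CPM and the young KD mice 117 and 152 CPM. Both sick KD mice lay above all others, and among the other 3 groups the ranges of old KO and young KD overlapped, as did those of young KO and young KD. The mean of sick KD was 353 ± 74.9 CPM, that of young KO 143 ± 8.39, that of young KD 134 ± 24.8 and that of old KO 114 ± 15.4 (SD, n = 2). Ccr1 was lower in old KO than in sick KD by a log2 fold change of -1.65 (SE 0.19, edgeR adjusted p = 0.00504), a 3.14-fold difference. It was higher in sick KD than in young KD by 1.40 (SE 0.20, edgeR adjusted p = 0.00903), or 2.65-fold. Both calls held with each mouse left out in turn, and after removal of the GC content and transcript length trends of the libraries the values were -1.45 and 1.31. These comparisons share the sick KD mice. Between old KO and young KO the log2 fold change of Ccr1 was -0.33 (SE 0.12, unadjusted p = 0.0304, edgeR adjusted p = 0.464), which did not pass the threshold.

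The difference of Ccr1 between KO and KD was itself not the same in the young groups as between old KO and sick KD. Only the KD mice of the latter pair were sick, so genotype and disease cannot be told apart in it. The interaction, (old KO minus sick KD) minus (young KO minus young KD), was -1.74 on the log2 scale (SE 0.26, edgeR adjusted p = 0.0146). Ccr1 was the 1 called gene among the 8 tested, where 7.43% of all genes were called, 4.32% higher and 3.11% lower. The adjusted p rose to 0.0578 without the 44-day young KO mouse (value -1.67) and to 0.0524 without the 39-day young KD mouse (value -1.55). Cxcl16 had an interaction of 1.01 (SE 0.37, edgeR adjusted p = 0.125) and Ccrl2 one of 1.39 (SE 0.62, edgeR adjusted p = 0.189), neither of them called. The median over the 8 genes was 0.24 and over all genes 0.00. Over the genes tested in each fit, the former was -0.35 without the 39-day young KD mouse and 0.86 without the 42-day young KD or the 44-day young KO mouse.

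In total marrow, fewer cells of a type and less RNA per cell cannot be told apart. Beside the summed monocyte markers, Ccr1 amounted to 2.94% and 2.36% in the sick KD mice, 0.983% and 1.13% in old KO, 1.33% and 1.67% in young KO and 1.41% and 1.49% in young KD. Ccr1 was thus higher in both sick KD mice also relative to these markers. Beside the summed neutrophil markers it amounted to 29.5% and 36.4% in sick KD and to 21.1% to 28.8% in the other 6 mice, a smaller distance, on a sum in which Lcn2 and Mmp8 were higher and Retnlg lower in sick KD. The part that a change in cell composition has in the Ccr1 result was not tested. Ccr2, the receptor of CCL2 on monocytes, was picked after its values were seen and was not called. It was at 2781 and 2353 CPM in sick KD and 1960 to 2583 CPM in the other mice, with a log2 fold change of -0.09 (SE 0.16, edgeR adjusted p = 0.738) in old KO against sick KD. Cx3cr1, another chemokine receptor among the monocyte markers, was called in the direction opposite to Ccr1. Its value was 1.18 (SE 0.16, edgeR adjusted p = 0.00628) in old KO against sick KD and -0.92 (SE 0.17, edgeR adjusted p = 0.0182) in sick KD against young KD. Of the 10 monocyte markers, it was the 1 called higher in old KO than in sick KD, and 2 were called lower.

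**Figure D2:**
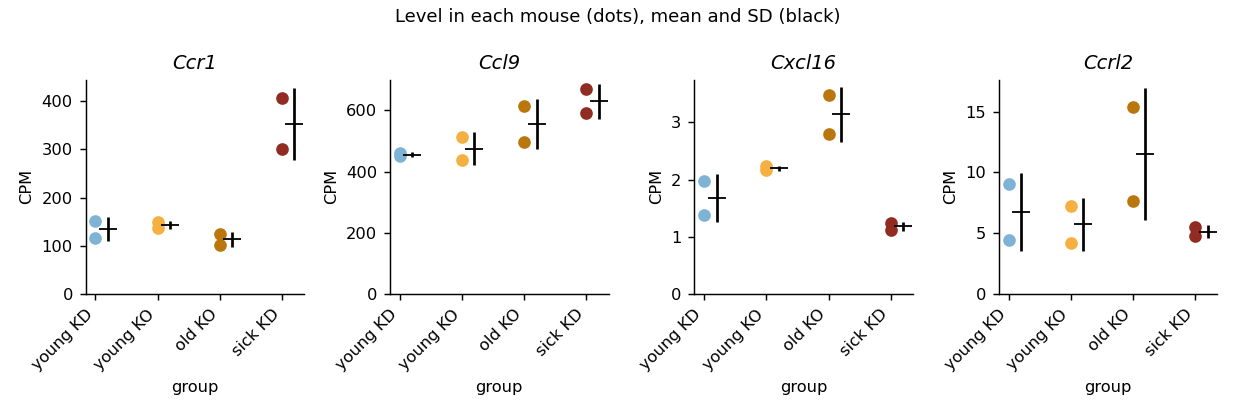
CPM of Ccr1, Ccl9, Cxcl16 and Ccrl2 in each mouse (dots) by group, with the mean and SD of the 2 mice in black. Ccr1 is at 300.1 CPM or more in sick KD and at 152 CPM or less elsewhere, and Cxcl16 is lowest in sick KD and highest in old KO.

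The abundant ligands of CCR1 moved less than the receptor. Ccl9, also known as MIP-1 gamma, was at 589.6 and 670 CPM in sick KD, 496 and 614 in old KO, 513 and 437 in young KO and 461 and 450.5 in young KD. The sick KD mice lay above both young groups and overlapped with old KO. Ccl9 was higher in sick KD than in young KD by 0.48 on the log2 scale (SE 0.12, edgeR adjusted p = 0.0360), or 1.39-fold. The call was lost without either young KD mouse (0.48 with an adjusted p of 0.296 without the 39-day mouse and 0.44 with 0.267 without the 42-day mouse), while the direction was kept. Between old KO and sick KD, Ccl9 differed by -0.20 (SE 0.16, edgeR adjusted p = 0.421). Relative to the summed monocyte markers Ccl9 was at 4.27% and 5.26% in sick KD and 4.43% to 5.59% in the other mice, so that these ranges overlapped.

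Ccl6, a myeloid CC chemokine found in rodents, was at 559 and 439 CPM in sick KD, 349 and 497 in old KO, 357 and 358 in young KO and 473 and 373 in young KD. The young KO mice lay below both young KD and both sick KD mice, and the other groups overlapped. E230016K23Rik, on the opposite strand, overlaps Ccl6 and had 87 to 188 counts. The log2 fold change was -0.25 (SE 0.21, edgeR adjusted p = 0.424) in old KO against sick KD, running from -0.53 to -0.01 with a mouse left out, and 0.25 (SE 0.17, edgeR adjusted p = 0.336) in sick KD against young KD.

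Cxcl16, the membrane-bound ligand of CXCR6, took the opposite course to Ccr1 between old KO and sick KD. It was at 1.24 and 1.13 CPM in sick KD (31 and 32 counts), 3.48 and 2.80 in old KO (99 and 109 counts), 2.23 and 2.16 in young KO and 1.97 and 1.38 in young KD. Both sick KD mice were below the other 6 and both old KO mice above them. Cxcl16 was higher in old KO than in sick KD by 1.39 (SE 0.29, edgeR adjusted p = 0.0222), or 2.62-fold. The adjusted p ran from 0.0175 to 0.074 with 1 mouse left out. The call was lost without the 187-day sick KD mouse (1.46, adjusted p = 0.074), the 78-day sick KD mouse (1.32, adjusted p = 0.0641) or the 158-day old KO mouse (1.23, adjusted p = 0.0587). In sick KD against young KD the value was -0.50 (SE 0.31, edgeR adjusted p = 0.289) and in old KO against young KO 0.52 (SE 0.24, edgeR adjusted p = 0.639), neither of them called.

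Summed macrophage markers moved with Cxcl16. They were 213 to 243 CPM in sick KD, 377 to 475 in old KO, 312 to 355 in young KO and 260 to 319 in young KD. Cxcl16 relative to them was 0.509% and 0.528% in sick KD, 0.733% and 0.743% in old KO, 0.627% and 0.693% in young KO and 0.758% and 0.434% in young KD. The old KO mice were still above sick KD on this measure, and the young KD mice spanned both. Summed eosinophil markers were 647 to 1162 CPM in old KO and 312 to 376 CPM in sick KD, and relative to them Cxcl16 overlapped between these groups (0.299% and 0.433% in old KO, 0.397% and 0.30% in sick KD). Their part in the result was not tested. Cxcl16 shares 16.9% of its 50-base words, sought on both strands, with other genes. It overlaps Zmynd15 on the opposite strand, a gene with 1 to 16 counts. The part of this overlap in the shared words was not examined.

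Ccrl2 was at 15.4 and 7.66 CPM in old KO, 4.79 and 5.50 in sick KD, 4.18 and 7.28 in young KO and 9.02 and 4.45 in young KD. Both old KO mice were above both sick KD mice, and the 2 old KO mice differed 2.00-fold from each other. The log2 fold change in old KO against sick KD was 1.14 (SE 0.34, edgeR adjusted p = 0.0611), just outside the threshold. It was 0.56 with an adjusted p of 0.295 without the 158-day old KO mouse and 1.56 with an adjusted p of 0.00156 without the 101-day old KO mouse. DESeq2 gave 1.15 with an adjusted p of 0.00839. With no filter on low counts edgeR gave 1.16 with an adjusted p of 8.21e-05. In old KO against young KO the value was 1.01 (SE 0.41, edgeR adjusted p = 0.576).

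Of the 8 tested genes, Cxcl16 was thus called higher and Ccr1 called lower in old KO than in sick KD, against 18.1% of all genes called (9.93% higher and 8.22% lower). In sick KD against young KD, Ccr1 and Ccl9 were called higher and none lower, against 20.9% of all genes (9.45% higher and 11.4% lower). In old KO against young KO none was called, against 0.929% of all genes, with 1 gene at an unadjusted p under 0.05 and 0 called by DESeq2. The shares of the 8 genes called, 2 of 8 in both comparisons with sick KD, are near what all genes gave. The median log2 fold change of the 8 genes was -0.10 in old KO against sick KD, -0.28 in sick KD against young KD and 0.11 in old KO against young KO. These medians are unstable, and each value below is over the genes tested in its own fit. The second was 0.38 without the 39-day and -0.82 without the 42-day young KD mouse, the first was 0.06 with the GC content and length trend removed, and the third was -0.09 without the 101-day old KO mouse.

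**Figure D3:**
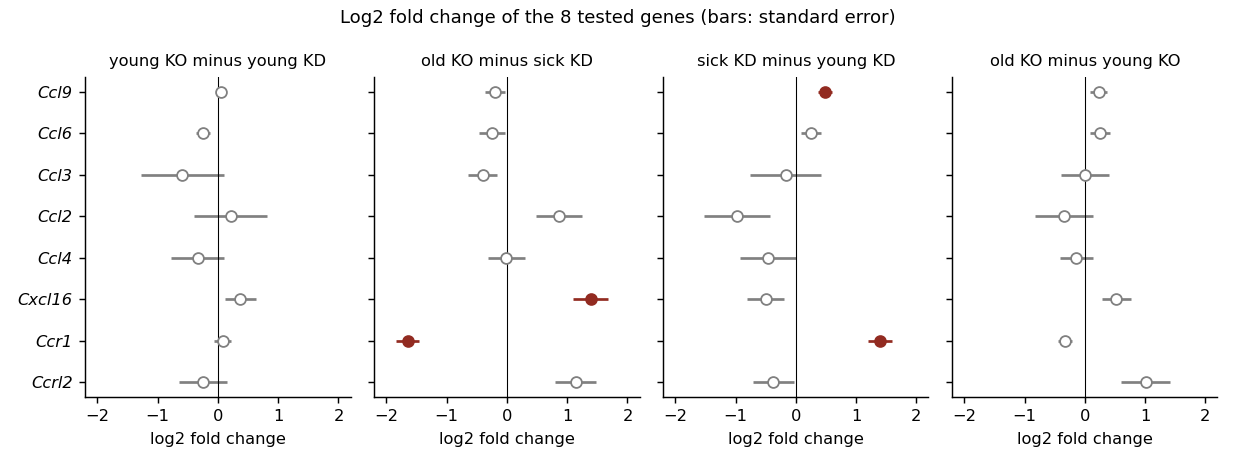
Log2 fold change of the 8 tested genes in the 4 comparisons, with the standard error as a bar and red filled dots for an adjusted p under 0.05. Ccr1 is at -1.65 in old KO against sick KD and 1.40 in sick KD against young KD, Cxcl16 at 1.39 and Ccl9 at 0.48 are the other called values, and the young comparison has none.

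The inducible ligands varied widely between the 2 young KD mice. Ccl3, or MIP-1 alpha, was at 11.8 CPM in the 39-day and 2.74 CPM in the 42-day young KD mouse, at 3.06 and 6.79 CPM in young KO, 4.15 and 5.66 in old KO and 6.31 and 6.55 in sick KD. The 2 young KD mice, 39 and 42 days old, were thus the highest and the lowest of all 8. Ccl4, or MIP-1 beta, was at 2.32 and 0.93 CPM in these young KD mice and between 1.13 and 1.45 CPM in the other 6. The log2 fold change of Ccl3 between old KO and sick KD was -0.40 (SE 0.24, edgeR adjusted p = 0.271) and that of Ccl4 -0.01 (SE 0.31, edgeR adjusted p = 0.984).

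Ccl2, or MCP-1, was at 3.26 and 1.02 CPM in young KD, 1.61 and 3.47 in young KO, 1.37 and 2.60 in old KO and 1.16 and 1.02 in sick KD. The mice aged 39, 44 and 101 days, from 3 groups, stood above the rest. Ccl2 differed by 0.86 (SE 0.38, edgeR adjusted p = 0.158) between old KO and sick KD, with 0.32 without the 101-day and 1.24 without the 158-day old KO mouse, and by -0.98 (SE 0.55, edgeR adjusted p = 0.242) between sick KD and young KD. Cxcl2 had 22 counts in the 39-day young KD mouse, 9 in the 44-day young KO mouse, 1 in the 101-day old KO mouse and 0 in the other 5. Its 3 mice with a count are the 3 with most Ccl2. Cxcl1 had 2 counts in the 78-day sick KD mouse, 1 in each old KO mouse and 0 in the other 5. A count of 0 allows up to 0.0689 to 0.120 CPM in these libraries, for counting error alone, and neither gene passed the filter for a test.

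Fos, an immediate early gene induced within minutes of stimulation, was picked after its values were seen because it followed the same mice. It was at 213 CPM in the 39-day young KD mouse, 183 in the 101-day old KO mouse and 153 in the 44-day young KO mouse, and between 42.5 and 100.2 CPM in the other 5. The 39-day mouse exceeded the 42-day mouse of the same group 4.31-fold for Ccl3, 3.19-fold for Ccl2, 2.48-fold for Ccl4 and 2.03-fold for Ccrl2, but 1.27-fold for Ccl6 and 1.02-fold for Ccl9. The sick KD mice were alike, with ratios of 1.04 for Ccl3, 1.13 for Ccl2 and 1.10 for Ccl4. The heat shock genes Hsph1 and Dnajb1, picked in the same way, were also highest in the mice aged 39, 44 and 101 days, at 35.6 to 45.4 CPM for Hsph1 against 22.4 to 32.1 CPM in the other 5 and at 100.3 to 116 CPM for Dnajb1 against 62.0 to 78.1 CPM. The part that whatever moved these genes has in the ligand values was not tested.

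**Figure D4:**
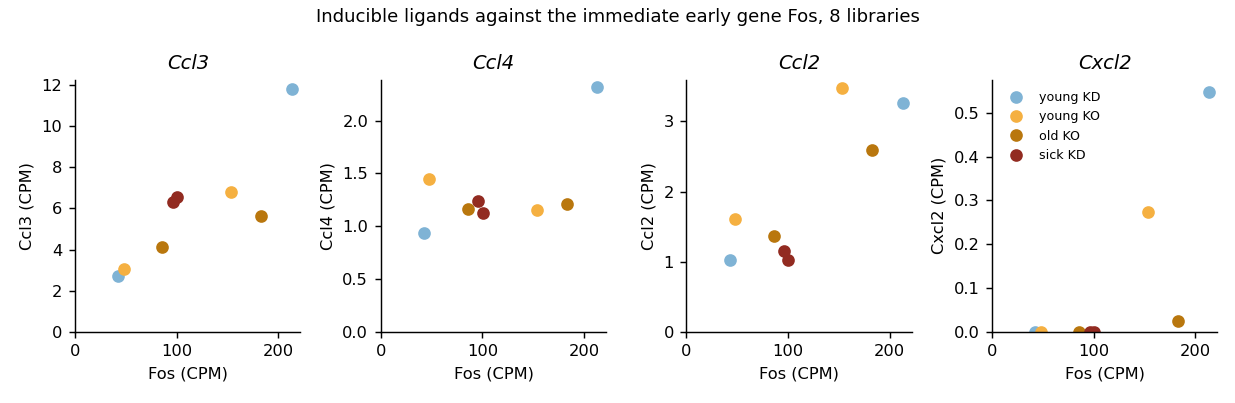
CPM of Ccl3, Ccl4, Ccl2 and Cxcl2 (vertical axes) against CPM of Fos (horizontal axes) in the 8 libraries, coloured by group. The 39-day young KD mouse, at 213 CPM of Fos, has the highest Ccl3, Ccl4 and Cxcl2, and the 3 mice with most Fos have the 3 highest Ccl2 values.

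For the 3 genes called in a comparison, the protein-coding genes with the most similar pattern were sought over the 8 libraries among 9924 genes, by Pearson r of log2(CPM + 1). Those nearest to Ccr1 were Gyg (r = 0.998) and Brcc3 (r = 0.993). Ccl9 was nearest to Rpl7a (r = 0.977) and Pgm1 (r = 0.973), and Cxcl16 to Aplp2 (r = 0.971) and Pld3 (r = 0.968). These are the highest values of that search over libraries that share the group structure, and describe likeness of pattern alone.

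The other chemokine ligand and receptor genes that were called between old KO and sick KD were all higher in old KO. Of 30 other ligands, 14 were tested, 6 were higher and none was lower, where 9.93% of all genes were called higher, with a median log2 fold change of 1.03, and 7 had no count in any library. Ccl8 and Cx3cl1, both among the 6, did not pass the filter on low counts in sick KD against young KD. They were tested here through their old KO counts, so they could hardly have been called lower. Cxcl12, the marrow niche factor that retains stem cells, was at 91.3 and 55.1 CPM in old KO and 14.0 and 9.30 CPM in sick KD, a log2 fold change of 2.64 (SE 0.29, edgeR adjusted p = 0.00496). Cxcl10, an interferon-induced ligand of CXCR3, was higher by 2.50 (SE 0.32, edgeR adjusted p = 0.00566) and Cxcl14 by 2.48 (SE 0.45, edgeR adjusted p = 0.0149). The Cxcl14 value was 2.69 with an adjusted p of 0.0525 without the 187-day sick KD mouse. Summed stroma and endothelium markers were 171 to 197 CPM in old KO and 106 to 115 CPM in sick KD. Cxcl12 is itself a large part of this sum in old KO, so the sum is not independent of the Cxcl12 values. Of the 7 markers, Cxcl12, Kitl and Lepr were called higher and none lower. The endothelial markers Cdh5 (0.49) and Pecam1 (-0.19) were not called.

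Of 22 other receptors, 15 were tested, 7 were higher in old KO than in sick KD and none was lower, with a median of 1.46, again beside 9.93% of all genes called higher. Ccr10, among the 7, likewise did not pass the filter in sick KD against young KD and was tested here through its old KO counts. Ccr3, the eotaxin receptor of eosinophils, was at 18.3 and 12.8 CPM in old KO and 1.96 and 1.80 CPM in sick KD (log2 fold change 3.03, SE 0.27, edgeR adjusted p = 0.00384). Cxcr5 and Ccr7, which guide lymphocytes to follicles and lymph nodes, were higher by 2.75 (SE 0.33, edgeR adjusted p = 0.00532) and 2.41 (SE 0.31, edgeR adjusted p = 0.00587). In this comparison 3 of 6 eosinophil, 2 of 8 B cell and 4 of 8 T and NK cell markers were called higher and none lower. In sick KD against young KD, all 8 B cell markers were called lower, as were Cxcr5 and Ccr7. Ccr3 was called lower there too, with 1 of the 6 eosinophil markers. In old KO against young KO all 8 B cell markers were again lower, but Cxcr5 (-0.39) and Ccr7 (-0.69) were not called. The part of these cell types was not tested. Ccr1 was thus lower in old KO than in sick KD where none of the 15 other tested receptors was called lower. In sick KD against young KD, 5 of 12 tested ligands and 5 of 15 tested receptors were lower and none was higher, beside 11.4% of all genes called lower. In old KO against young KO, 1 of 17 tested receptors was called, beside 0.929% of all genes. This was Cxcr6, the receptor of CXCL16, which was higher (2.36, SE 0.22, edgeR adjusted p = 0.0231). No Cxcr6 value with a mouse left out is given here. The 8 T and NK cell markers had a median of 0.81 in this comparison, with Ncr1 called lower and none called higher, and their part was not tested. None of the 14 tested ligands was called in old KO against young KO. In the young comparison no ligand or receptor was called.

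Of the 24 signalling genes below these receptors, all tested, 2 were higher and 2 lower in old KO than in sick KD, a share near the 18.1% of all genes called. Arrb1, a beta-arrestin that desensitizes receptors, was higher by 0.86 (SE 0.14, edgeR adjusted p = 0.0119). Elmo1, which couples receptors to RAC through DOCK2, was at 107 and 121 CPM in old KO and 229 and 190 CPM in sick KD (-0.89, SE 0.14, edgeR adjusted p = 0.0106). Pik3cg, the catalytic subunit of PI3K gamma, was lower by -0.78 (SE 0.14, edgeR adjusted p = 0.0129), and its value was -0.75 with an adjusted p of 0.0631 without the 158-day old KO mouse. None of the 4 tested partners of CCRL2 and CXCL16 (Rarres2, which encodes chemerin, its receptor gene Cmklr1, and the protease genes Adam10 and Adam17) was called in any comparison.

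**Figure D5:**
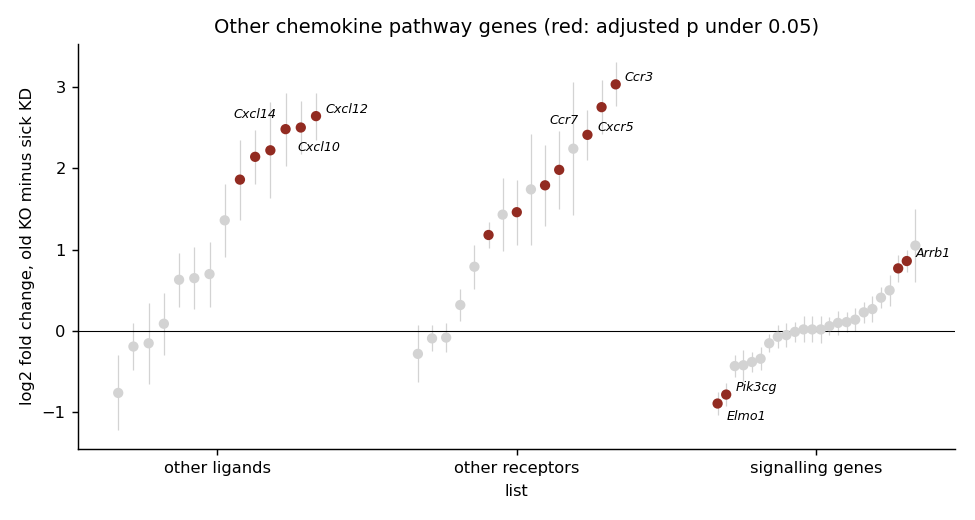
Log2 fold change in old KO against sick KD of the tested ligands, receptors and signalling genes other than the 10 described, each with its standard error, ordered by value within a list and red for an adjusted p under 0.05. The red ligands and receptors all lie above 0, up to 2.64 for Cxcl12 and 3.03 for Ccr3, whereas the signalling genes run from -0.89 for Elmo1 upward with called genes on both sides.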

How the data were processed

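Total bone marrow RNA of 8 mice, 2 in each of 4 groups, was analysed by RNA-seq. The authors made poly(A) libraries with a strand-specific kit, aligned the reads to mm10 with TopHat 2.0.10 and used HTSeq to count them on Ensembl genes. The authors deposited these raw counts per gene and mouse, without normalization. The Ensembl release and the strand setting of the counting are not given in the sources used here. The 5 HTSeq tallies of unassigned reads were left out of library sizes and tests. Mice were grouped by their labels, which name separate animals. Symbols and coordinates came from GENCODE M21 (GRCm38), with a symbol for 40340 of 41214 genes.

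Differences were tested in R 4.3.3 using edgeR 4.0.16 (TMM, filterByExpr, quasi-likelihood test, Benjamini-Hochberg over all genes tested, threshold 0.05), each comparison on its own 4 mice and the interaction on 8. Each SE was derived from the test's F, as the size of the log2 fold change over the square root of F. A gene's level is CPM after TMM, with a pseudocount of 1 for log2 values. The limit of a count of 0 was 3 counts, for counting error only. Libraries held 26642067 to 42679114 counts. Counting error and variation among the 2 animals of a group were not separated.

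Genes named besides the 10 were, by rule, the 2 of mean CPM at least 5 most like each called gene, and the 3 with the largest change past the threshold in old KO against sick KD from each list of other ligands, receptors, partners and signalling genes. Ccr2, Cx3cr1, Cxcr6, Fos, Hsph1, Dnajb1, Gfi1, the tested partners and the neutrophil markers Lcn2, Mmp8 and Retnlg are outside this rule. The genes and lists were chosen with earlier results of these data known. Other settings tried were the size factors and the Wald test of DESeq2 1.42.0, no filter and a stricter filter on low counts, all 8 mice in 1 fit, library sizes without the 50 genes with most counts, removal of the trend in GC content and transcript length, and leaving out each mouse. Some items are not reported here. Scripts were tested on simulated data.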

Additional observations from a re-analysis of the deposited data

Results flagged for a closer look

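The KO-to-KD difference of Ccr1 differed between old or sick mice and young mice by -1.74 on the log2 scale (SE 0.26, edgeR adjusted p = 0.0146), by the test of the interaction itself. The value ran from -1.95 to -1.5 with a mouse left out, and the call was lost in 2 of these fits. Genotype and disease cannot be told apart between old KO and sick KD. With 2 mice in a group, no sample could be tested as standing apart from its group.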

How the results depend on the processing

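Of 200 values of 29 fold changes under other settings, 196 kept their direction and side of the threshold and 4 passed it newly, and of 128 with a mouse left out 115 kept both, 9 lost the call, 1 gained it and 3 turned sign. The range with a mouse left out in the young comparison was -0.10 to 0.29 for Ccr1, -0.06 to 0.15 for Ccl9 and -1.28 to 0.83 for Ccl3. A fit with a mouse left out assumes that the lone mouse of its group varies like the others. All genes called in young KO against young KD were 29 with DESeq2, 119 with no filter, 3 with all 8 mice and 2 to 8 with a mouse left out. In old KO against sick KD they were 4325 with no filter, 4200 with all 8 mice and 1221 to 2795 with a mouse left out, and in sick KD against young KD 1316 to 3401. In old KO against young KO they were 382 with DESeq2, 796 with no filter and 17 to 307 with a mouse left out. For the interaction they were 1922, 2919 and 1812 with DESeq2, no filter and the GC content and length trend removed, and 106 to 1614 with a mouse left out. Of the 10 genes, 1 to 3 were called in old KO against sick KD and 2 to 4 in sick KD against young KD with a mouse left out, and 0 to 1 in the interaction. With no filter, 1 was called in old KO against young KO and 2 in the interaction. The cause was not tested. No paired analysis was possible because the labels give individual mouse numbers and none that groups share. The filter on low counts kept Cxcl1 and Cxcl2 from being tested.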
